A study of Mus musculus with 4 samples.

Results

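A group of 10 genes of the aryl hydrocarbon receptor pathway and of nitro-group reduction were followed in ribosome footprint counts from MLE-12 cells. Of the 7 that could be tested, 0 were called changed by 1-nitropyrene, where 17.3% of all tested genes were. The other 3 had no counts in any library. So few tested genes, several with low counts, cannot show that the group differs from the 17.3%. The 10 genes were chosen by their place in the pathway, with earlier results of these data known. They are 10 of the 53465 Ensembl mouse gene IDs counted. They comprise the receptor Ahr and its partner Arnt, the cytochrome P450 genes Cyp1a1, Cyp1a2 and Cyp1b1, the feedback inhibitors Ahrr and Tiparp, and the reductases Nqo1, Por and Xdh. The pairing of symbol and ID came with the selection, and no table used here ties the other IDs to symbols.

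MLE-12 cells are mouse lung epithelial cells that carry the SV40 large T antigen and serve as a stand-in for alveolar type 2 cells. The study exposed them for 12 h to 5 µM 1-nitropyrene, which is a nitroarene found in diesel exhaust (replicates 2 and 3), or left them without it (controls, replicates 1 and 2). The labels name no vehicle for the controls, and do not say whether a group's libraries stem from different cultures, so the spread behind the p-values is that of these libraries alone and may be technical. The libraries held 1136145 to 1357034 counts, and the 10 genes took 0.0259% to 0.0321% of them. Markers of lung cell types could not be looked up, so the labelled cell type was not checked here.

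The aryl hydrocarbon receptor is a ligand-activated transcription factor that waits in the cytoplasm with chaperones. Polycyclic aromatic ligands release it to the nucleus, where it joins Arnt, binds DNA at a response element with the core GCGTG, and induces the CYP1 enzymes as well as its own inhibitors Ahrr and Tiparp. Nitroarenes such as 1-nitropyrene are in addition reduced at the nitro group by flavin-dependent and molybdenum-dependent enzymes, Por and Xdh among them, which yields reactive intermediates that can form DNA adducts.

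Cyp1a1, Cyp1b1, Ahrr and Tiparp are textbook targets of the receptor, and the places of the core motif in their promoters are shown here. The 200 bases before the start site are given 5′ to 3′ on the gene's strand, from RefSeq on GRCm38.p6, with every GCGTG, or its complement CACGC, in capitals. For Cyp1a1 the start site is one inside the span that the RefSeq gene table gives, and for the others it is the end of that span.
Cyp1a1: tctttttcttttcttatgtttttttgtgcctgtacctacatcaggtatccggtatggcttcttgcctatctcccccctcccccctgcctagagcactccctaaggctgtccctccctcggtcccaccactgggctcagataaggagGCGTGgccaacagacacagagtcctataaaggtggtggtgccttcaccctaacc
Cyp1b1: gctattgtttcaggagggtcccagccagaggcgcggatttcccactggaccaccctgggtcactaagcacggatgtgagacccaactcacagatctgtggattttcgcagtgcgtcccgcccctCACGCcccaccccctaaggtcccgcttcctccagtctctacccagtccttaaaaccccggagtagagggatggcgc
Ahrr: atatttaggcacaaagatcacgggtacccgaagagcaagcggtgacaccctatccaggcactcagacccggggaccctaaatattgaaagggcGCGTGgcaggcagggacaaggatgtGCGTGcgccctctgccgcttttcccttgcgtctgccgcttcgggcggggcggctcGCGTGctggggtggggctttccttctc
Tiparp: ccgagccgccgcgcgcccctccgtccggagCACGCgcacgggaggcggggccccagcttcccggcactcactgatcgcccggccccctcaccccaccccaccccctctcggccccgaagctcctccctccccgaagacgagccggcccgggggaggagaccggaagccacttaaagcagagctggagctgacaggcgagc
These stretches lie at chr9:57697413-57697612 on the plus strand, chr17:79715062-79715261 on the minus strand, chr13:74292332-74292531 on the minus strand and chr3:65528247-65528446 on the plus strand. The core begins 54 bases before the start in Cyp1a1, 76 in Cyp1b1 and 170 in Tiparp, and 107, 82 and 27 bases before it in Ahrr. Promoter windows of 250 bases before to 50 after the start were listed for 8 of the 10 genes (not for Ahr and Xdh). On either strand, 6 of these 8 held GCGTG, as did 32.4% of the 32851 promoters searched. Besides the promoters shown, those of Arnt and Por held it, while those of Cyp1a2 and Nqo1 did not. Holding the core thus did not separate the receptor's targets from the other genes of the group. The longer form TNGCGTG, which contains the core, was found in 1 of the 8 (Ahrr) and in 5.07% of all promoters. The antioxidant response core TGACNNNGC was found in 1 (Arnt) and in 12.4% of all promoters. A match is only a run of letters, and elements outside these windows were not searched.

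The 3 CYP1 genes, whose products oxidise polycyclic aromatic compounds, had no footprint in any library. Cyp1a1 (ENSMUSG00000032315, chr9:57687928-57703824), Cyp1a2 (ENSMUSG00000032310, chr9:57676937-57683655) and Cyp1b1 (ENSMUSG00000024087, chr17:79706940-79715061) each had 0 counts in both control and both 1-nitropyrene libraries. A gene with 0 counts may still have a level as high as 3 counts, that is 2.28 and 2.53 CPM (counts per 1000000 scaled counts) in control replicates 1 and 2, and 2.58 and 2.38 CPM in 1-nitropyrene replicates 2 and 3. These limits cover counting error only, each for its library taken alone. No fold change can be given, and 0 counts in a library do not tell a level below its limit from none. Most IDs of the table, 39727 or 74.3%, likewise had 0 counts in every library. Cyp1a1 and Cyp1a2 are close paralogs, and how reads matching more than 1 gene were counted is not given in the sources used here.

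The other 7 genes passed the filter on low counts and were tested among 7719 genes with edgeR's quasi-likelihood test. None reached a Benjamini-Hochberg adjusted p under 0.05 (0 of 7), where 17.3% of all tested genes did, 9.68% higher and 7.58% lower in 1-nitropyrene. Leaving out 1-nitropyrene replicate 3 gave 1 of 7 (Por), against 9.99% of the genes tested in that fit. Leaving out control replicate 1, control replicate 2 or 1-nitropyrene replicate 2 gave 0 of 7, against 9.21%, 8.84% and 6.78%. At an unadjusted p under 0.05 there were 2 of the 7, Por and Nqo1, against 29.9% of all tested genes. By limma-voom there were 0 adjusted and 1 unadjusted, against 16.2% and 29.3% of all genes. The DESeq2 Wald test gave an adjusted p to 2 of the 7, Tiparp and Por, and called neither, against 11.2% of the genes to which it gave one; its own filter left the other 5 without. At an unadjusted p under 0.05 it had 0 of 7, against 6.93% of the 13738 genes it gave a p-value. These include genes with low counts that edgeR's filter left out, so the 6.93% is not like the 29.9% and 29.3%. In CPM, control and 1-nitropyrene libraries lay apart for the same pair, 2 of 7, against 57.3% of all tested genes. The median log2 fold change of the 7 was -0.092, and that of all tested genes -0.0076. With 2 libraries a group an exact permutation test of a single value cannot go below p = 0.333 (two-sided).

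**Figure D1:**
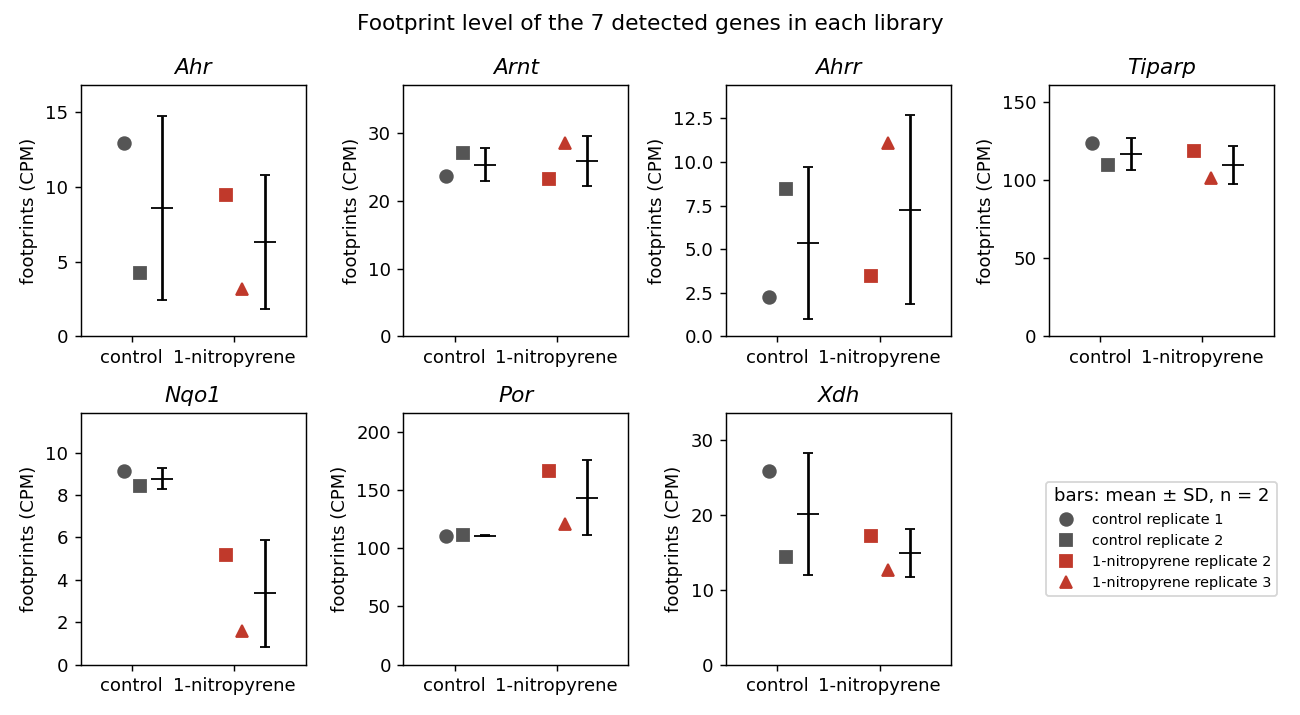
Footprint level (CPM, TMM-scaled counts) of the 7 detected genes in each library; symbols are the libraries and the bars beside them the mean ± SD (n = 2). Por and Nqo1 are the panels in which the control and 1-nitropyrene libraries do not overlap. For Ahr, Arnt, Ahrr and Tiparp, the libraries of each group lie further apart than the group means.

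Footprints of the receptor gene Ahr (ENSMUSG00000019256, chr12:35497979-35534989) were scarce. Control replicates 1 and 2 had 17 and 5 counts, and 1-nitropyrene replicates 2 and 3 had 11 and 4, or 12.9 and 4.22 CPM against 9.47 and 3.17 CPM. Each group had a high and a low library, and the groups overlapped. The mean was 8.57 ± 6.16 CPM in control and 6.32 ± 4.45 CPM in 1-nitropyrene (SD, n = 2 each), a log2 fold change of -0.48 ± 0.59 (SE) (edgeR adjusted p = 0.628). The 95% interval of the ratio to control ran from 0.323 to 1.59. The sign rested on single libraries, at 0.55 without control replicate 1 and 0.12 without 1-nitropyrene replicate 3.

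Arnt (ENSMUSG00000015522, chr3:95434367-95497240), which the receptor needs to bind DNA, differed between the groups by less than the spread between libraries. Its counts were 31 and 32 in control and 27 and 36 in 1-nitropyrene libraries. The levels were 23.6 and 27 CPM against 23.2 and 28.5 CPM, so the 1-nitropyrene pair enclosed the control pair. The ratio to control was 1.03, with a 95% interval of 0.663 to 1.60 (edgeR adjusted p = 0.957). Its log2 fold change, 0.040 as scaled here, was -0.12 when libraries were scaled to total counts, -0.057 without control replicate 1 and -0.12 without 1-nitropyrene replicate 3.

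Tiparp (ENSMUSG00000034640, chr3:65528447-65555518), an ADP-ribosyltransferase that is induced by the receptor and dampens it, was the receptor target with the most counts. There were 163 and 130 counts in control and 138 and 128 in 1-nitropyrene libraries. At 124 and 110 CPM against 119 and 101 CPM the groups overlapped, the lowest value being a 1-nitropyrene library and the highest a control library. The means were 117 ± 10.1 and 110 ± 12.3 CPM (SD, n = 2 each), and the log2 fold change was -0.092 ± 0.16 (SE) (edgeR adjusted p = 0.750). The 95% interval of the ratio, 0.758 to 1.16, left out a rise of more than 1.16-fold in these libraries. Scaling to total counts moved the log2 fold change to -0.26, and leaving out control replicate 1 or 1-nitropyrene replicate 3 put it at 0.0019 and 0.023. A long noncoding RNA gene, 4931440P22Rik, overlaps Tiparp in the RefSeq table, and whether counting used strand is not given in the sources used here.

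Ahrr (ENSMUSG00000021575, chr13:74211118-74292331), the repressor that competes with the receptor for Arnt, had 3 and 10 counts in control and 4 and 14 in 1-nitropyrene libraries. These were 2.28 and 8.44 CPM against 3.44 and 11.1 CPM. As for Ahr, each group held a high and a low library; for Ahrr the high ones were control replicate 2 and 1-nitropyrene replicate 3, and for Ahr the other two. The ratio to control was 1.40 with a 95% interval of 0.594 to 3.31 (edgeR adjusted p = 0.656), too wide to tell a rise from a fall. The log2 fold change of 0.49 became -0.19 without control replicate 1 and -0.59 without 1-nitropyrene replicate 3.

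The reductases differed in direction, and none was called. Por (ENSMUSG00000005514, chr5:135670040-135735326) encodes the flavoprotein that passes electrons from NADPH to microsomal P450 enzymes. It had 145 and 132 counts in control and 193 and 152 in 1-nitropyrene libraries. The control libraries, at 110 and 111 CPM, were nearly equal, and both 1-nitropyrene libraries, at 166 and 120 CPM, lay above them. The means were 111 ± 0.761 and 143 ± 32.3 CPM (SD, n = 2 each). The log2 fold change was 0.36 ± 0.15 (SE), or 1.29-fold, with a 95% interval of 1.05 to 1.58 that is not adjusted for the number of genes (edgeR unadjusted p = 0.0141, adjusted p = 0.0713). The value depended on the 1-nitropyrene library kept. Without replicate 2 the log2 fold change was 0.13 (adjusted p = 0.699), and without 1-nitropyrene replicate 3 it was 0.59 and passed the threshold (adjusted p = 0.0146). With total counts the log2 fold change was 0.20 (adjusted p = 0.369). A long noncoding RNA gene, Gm40345, and a pseudogene, Gm16061, overlap Por in the RefSeq table.

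Nqo1 (ENSMUSG00000003849, chr8:107388225-107403205), a quinone reductase that is a target of both the receptor and the oxidative stress factor NRF2, had 12 and 10 counts in control and 6 and 2 in 1-nitropyrene libraries. The levels were 9.13 and 8.44 CPM against 5.16 and 1.58 CPM, so both 1-nitropyrene libraries lay below both controls. The means were 8.78 ± 0.488 and 3.37 ± 2.53 CPM (SD, n = 2 each), and the log2 fold change was -1.38 ± 0.67 (SE) (edgeR unadjusted p = 0.0401, adjusted p = 0.144). The 95% interval of the ratio to control, 0.154 to 0.957, was not adjusted for the number of genes and rests on 30 counts in all. Leaving out 1-nitropyrene replicate 2 gave -2.39 and leaving out replicate 3 gave -0.75, both short of the threshold (adjusted p = 0.221 and 0.653). Over the alternatives the log2 fold change stayed below 0. As the groups did not overlap, leaving out 1 library could hardly change that sign, so it adds no support. With no library left out, the adjusted p ran from 0.0885 (edgeR, total counts) to 0.589 (DESeq2 Wald test on the genes edgeR tested).

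Xdh (ENSMUSG00000024066, chr17:73883895-73950397), the molybdenum enzyme of purine breakdown, had 34 and 17 counts in control and 20 and 16 in 1-nitropyrene libraries. At 25.9 and 14.3 CPM against 17.2 and 12.7 CPM, control replicate 1 stood above the other 3 libraries, and the groups overlapped. The ratio to control was 0.735, with a 95% interval of 0.432 to 1.25 (edgeR adjusted p = 0.471). Without control replicate 1 the log2 fold change of -0.44 became 0.052. A pseudogene, Gm18068, overlaps Xdh in the RefSeq table.

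**Figure D2:**
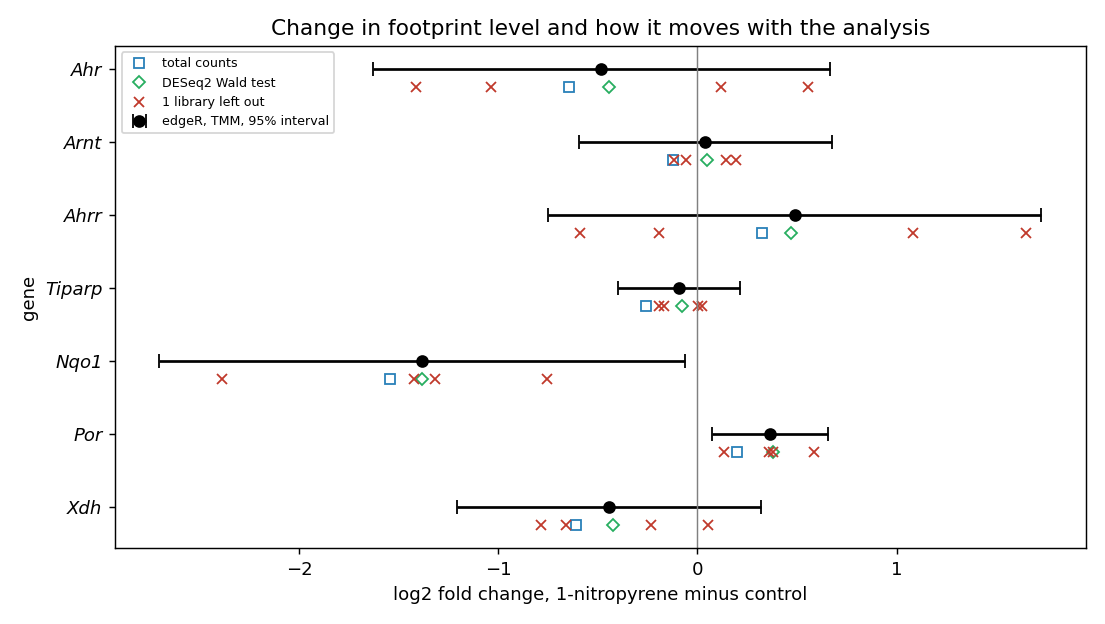
Log2 fold change of each detected gene, 1-nitropyrene minus control; black points and bars are the edgeR estimate with TMM scaling and its 95% interval, and the marks below each are total-count scaling, the DESeq2 Wald test and the fits with 1 library left out. Only the intervals of Nqo1 and Por leave out 0. Leaving out control replicate 1 carries Ahr, Arnt, Ahrr, Tiparp and Xdh across 0, and leaving out 1-nitropyrene replicate 3 does so for Ahr, Arnt, Ahrr and Tiparp.

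The edgeR fit gave every gene the spread typical of its abundance and not that of its own libraries, so the intervals above do not widen for genes such as Ahr, Ahrr and Por, whose libraries disagree within a group.

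**Figure D3:**
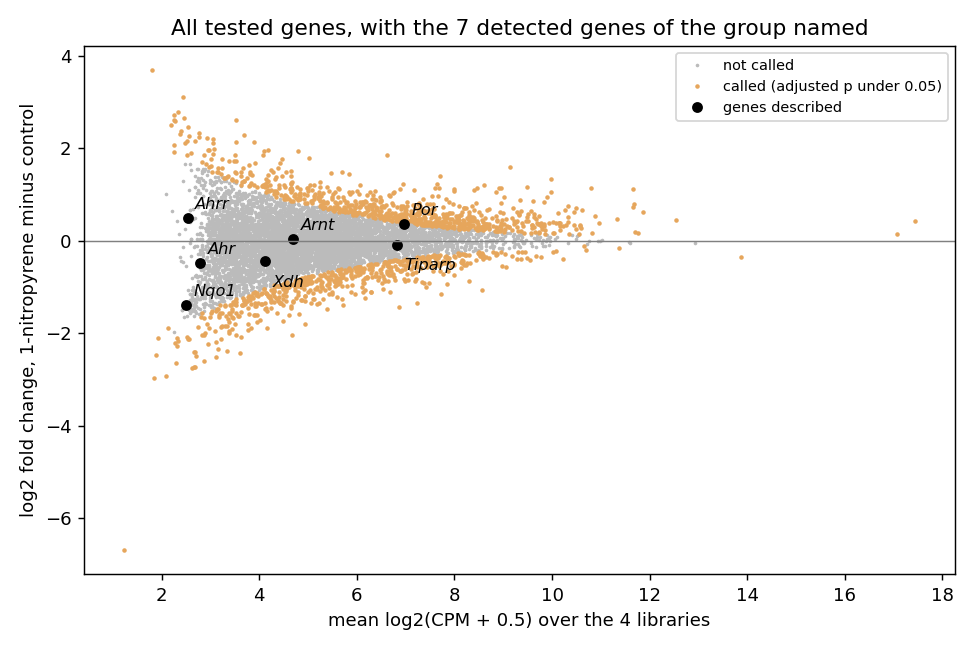
Each of the 7719 tested genes by its mean level over the 4 libraries, log2(CPM + 0.5), and its log2 fold change, 1-nitropyrene minus control; called genes are orange and the 7 detected genes black. All 7 lie among genes that were not called, with Por at the edge of the called genes at its level.

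Footprint levels reflect both mRNA amount and ribosome occupancy, and RNA libraries of these cells were not analysed here. In a bulk lysate, a change in every cell and a change in some of the cells cannot be told apart. Levels were not compared between genes, as no coding lengths were at hand.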

How the data were processed

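Ribosome footprints were counted in 4 libraries, 2 per group. The authors deposited raw counts per Ensembl gene ID, whole numbers with no normalization. They used mm10, DESeq2, featureCounts, HISAT2, Bowtie and cutadapt, per the submitters' processing notes; versions, settings and annotation: not given in the sources used here. The genes and lists were chosen with earlier results of these data known.

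All IDs were filtered with edgeR's filterByExpr (minimum count 10, minimum total 15), scaled with TMM and tested with glmQLFTest of edgeR 4.0.16 (quasi-likelihood) in R 4.3.3, with Benjamini-Hochberg adjustment over all 7719 genes tested and a threshold of 0.05. All 10 genes are named whatever their values. CPM are counts over TMM-scaled library sizes; 1 count was worth 0.761 to 0.860 CPM. The SE is the log2 fold change over the root of F. Alternatives were DESeq2 size factors, total counts, no filter, 5 CPM in 2 libraries, DESeq2 1.42.0, limma-voom (limma 3.58.1) and leaving out each library. The scripts were first tested on simulated counts. The gene table (GRCm38.p6, 49997 genes) gave an Ensembl ID for 0 genes, so 74 listed symbols of related pathway genes and cell type markers were not looked up. Locations are RefSeq's, taken by symbol.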

Additional observations from a re-analysis of the deposited data

How the results depend on the processing

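The count of called genes among the 7 tested stayed at 0 with DESeq2 size factors, total counts, no filter, 5 CPM in 2 libraries, limma-voom, and the DESeq2 Wald test on the genes edgeR tested (an alternative added after the data were seen). With its own filter DESeq2 gave an adjusted p to Tiparp and Por alone and called neither. Leaving out each library gave 0 to 1 called gene and 0 to 1 called higher, the 1 being Por without 1-nitropyrene replicate 3. Over all genes, 1332 were called by edgeR, 315 by DESeq2, 345 by DESeq2 on the genes edgeR tested, and 572 to 834 with a library left out, where the lone sample is assumed to vary like the other group. Of 77 combinations of a gene and an alternative, 72 had an adjusted p, the other 5 being those of DESeq2 with its own filter. Of the 72, 61 kept direction and side of the threshold, 10 changed sign and 1 passed the threshold. Without control replicate 1 the log2 fold changes of Ahr, Arnt, Ahrr, Tiparp and Xdh were 0.55, -0.057, -0.19, 0.0019 and 0.052. Without 1-nitropyrene replicate 3 those of Ahr, Arnt, Ahrr and Tiparp were 0.12, -0.12, -0.59 and 0.023. Under total counts the median log2 fold change over all tested genes went from -0.0076 to -0.17 and that of the 7 from -0.092 to -0.26, and Arnt turned to -0.12. None of the 10 reversed values passed the threshold before or after, and the cause was not tested. No paired analysis was possible because just 1 replicate number, 2, occurs in both groups. With a library left out, log2 fold changes ran from -1.42 to 0.55 for Ahr, -0.12 to 0.19 for Arnt, -0.59 to 1.65 for Ahrr, -0.19 to 0.023 for Tiparp, and -0.79 to 0.052 for Xdh. Levels per coding length and the lists of related genes were not run. Ahr, Ahrr and Nqo1 rest on 37, 31 and 30 counts in all.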
